A study of Homo sapiens with 9 samples.

Results

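The 10 genes of the spindle assembly checkpoint and of anaphase onset, CDC20, FZR1, BUB1, BUB1B, BUB3, MAD1L1, MAD2L1, TTK, PTTG1 and ESPL1 were followed by symbol through 9 RNA-seq libraries of U2OS cells. They are among 44608 entries of each count table, and all 10 were among the 14815 genes with enough reads to be tested. U2OS is a human osteosarcoma cell line. The groups are siNFKB2 (siRNA against NFKB2), siRELB (siRNA against RELB) and siNS (non-silencing siRNA), with 3 libraries each. All cells received siRNA at 75 nM with a lipid reagent, so the controls were transfected too, and RNA was collected after 48 h. Knockdown is transient and incomplete. Nothing in the labels says that replicates came from separate cultures, and p-values therefore reflect only how much these 9 libraries vary, possibly for technical reasons.

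The spindle assembly checkpoint holds a dividing cell in metaphase until every chromosome is attached to spindle microtubules. Unattached kinetochores, through the kinases TTK and BUB1 and the scaffold pair MAD1L1 and MAD2L1, build an inhibitor from MAD2L1, BUB1B and BUB3 that captures CDC20, the activator of the anaphase-promoting complex (APC/C). Once CDC20 is released, the APC/C tags securin (PTTG1) and cyclin B for destruction, and the protease separase (ESPL1) then cuts the cohesin that ties sister chromatids. FZR1 takes over from CDC20 as the APC/C activator at mitotic exit and in G1 phase. Transcripts of many of these genes are made mainly in G2 and M phase, and in bulk RNA fewer cells in those phases and less RNA per cell cannot be told apart.

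Library totals ranged from 15011789 to 19279572 counts. NFKB2 remained at 4.86%, 21.1% and 44.8% of its siNS mean in siNFKB2 replicates 1 to 3, and RELB at 9.79%, 17.1% and 19.7% of its siNS mean in siRELB replicates 1 to 3. The libraries numbered 1 stood apart in every group, since their deviations from their group means correlated over genes at 0.57 to 0.646. Mitochondrial rRNA took 0.379% to 2.68% of counts, with the highest share in siNFKB2 replicate 3. The mesenchymal marker VIM was between 2140 and 3220 CPM in every library and COL1A1 between 518 and 1074 CPM, while the osteoblast marker BGLAP was at 0 in 8 of 9 libraries and TWIST1 in all 9. Of 7 blood markers 3 were at 0 in every library, and the 7 summed to 19.1 to 29.2 CPM. The epithelial keratin KRT18 was present at 379 to 620 CPM, and EPCAM at 1.02 to 2.73 CPM.

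Levels below are CPM, counts scaled to a common library size after TMM normalization. Between genes they can be compared only per length, here as CPM per kilobase of the exons of all GENCODE 29 transcripts of a gene, which understates genes with long, little-used exons. On that scale CDC20 was the most abundant of the 10 in siNFKB2, siRELB and siNS, at 64.9, 159 and 183 CPM per kilobase, and PTTG1 was next in each, at 46.2, 78.1 and 88.1. In siNS, BUB1 at 39.5 and BUB3 at 24.9 followed, and neither overlapped its neighbours in that order. BUB1B, MAD2L1, TTK and MAD1L1, between 14.9 and 19.9 on average, overlapped one after the other. ESPL1 at 10.3 and FZR1 at 8.93 were lowest and overlapped too. The order differed after the NFKB2 siRNA, where BUB3 at 30.7 lay above BUB1 at 25.3, although their libraries overlapped (27.0 to 33.7 and 23.5 to 28.3), and ESPL1 was lowest at 3.72. In siRELB, BUB3 was sixth at 17.3 CPM per kilobase.

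Depletion of NFKB2 was the first comparison; the series as a whole concerns homologous recombination genes in such cells. Of the 10 genes, 6 fell and none passed the test in the other direction. CDC20 fell to 35.4% and ESPL1 to 36.1% of the siNS mean, PTTG1 to 52.5%, TTK to 63.4%, BUB1 to 64.1% and BUB1B to 69.5%. FZR1, BUB3, MAD1L1 and MAD2L1 did not pass the test. Calls are at 0.05 on Benjamini-Hochberg adjusted p-values of edgeR's quasi-likelihood test, taken across the 14815 genes, and each adjusted p below comes from it unless another tool is named. In this comparison 26.1% of all tested genes were called, 13.5% lower and 12.6% higher.

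CDC20 (chromosome 1, 43358955 to 43363203, plus strand, GRCh38) had 163, 110 and 123 CPM in siNFKB2 replicates 1 to 3, against 299, 346 and 329 CPM in siRELB and 328, 418 and 375 CPM in siNS. Every siNFKB2 library lay below the lowest of the other 6. The log2 fold change of siNFKB2 against siNS was -1.5 (SE 0.158, adjusted p = 0.00029). FZR1 (chromosome 19, 3506273 to 3538330, plus strand), the other APC/C activator, had 42.4, 64.0 and 64.1 CPM in siNFKB2, 37.2, 46.4 and 47.9 CPM in siRELB, and 36.2, 58.9 and 60.3 CPM in siNS. Its replicate 1 was the lowest library in each group, and the groups overlapped. The log2 fold change in siNFKB2 was 0.13, with a 95% interval from -0.36 to 0.63 (adjusted p = 0.708), and it was -0.07 without siNS replicate 1 and -0.03 with the share of mitochondrial rRNA as a covariate.

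Securin and separase, the inhibitor and the protease it restrains, both fell. PTTG1 (chromosome 5, 160421822 to 160428744, plus strand) had 90.8, 90.6 and 97.9 CPM in siNFKB2, 127, 170 and 175 CPM in siRELB, and 139, 219 and 174 CPM in siNS. The siNFKB2 libraries were alike, at a coefficient of variation of 4.51%, whereas the siNS libraries varied by 22.7% and did not reach down to them. Its log2 fold change was -0.93 (SE 0.176, adjusted p = 0.00413). ESPL1 (chromosome 12, 53268299 to 53293643, plus strand) had 41.2, 27.6 and 30.3 CPM in siNFKB2, 89.2, 96.9 and 97.0 CPM in siRELB, and 96.9, 92.7 and 85.0 CPM in siNS. The 6 libraries without the NFKB2 siRNA thus spanned only 85.0 to 97.0 CPM, and those with it were at 30.2% to 45.1% of the siNS mean. The log2 fold change was -1.47 (SE 0.153, adjusted p = 0.000284).

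The kinetochore kinases and BUBR1 also fell. BUB1 (chromosome 2, 110637698 to 110678114, minus strand), a kinase that marks kinetochores and recruits other checkpoint proteins, had 171, 142 and 146 CPM in siNFKB2, 224, 212 and 218 CPM in siRELB, and 259, 224 and 232 CPM in siNS. All siNFKB2 values lay below the other 6 (log2 -0.64, SE 0.11, adjusted p = 0.00245). TTK (chromosome 6, 80003887 to 80042527, plus strand), the kinase known as MPS1 that starts checkpoint signalling, had 52.1, 42.4 and 41.4 CPM in siNFKB2, 72.9, 82.1 and 75.1 CPM in siRELB, and 84.4, 59.7 and 70.4 CPM in siNS. It was lower in siNFKB2 without overlap (log2 -0.66, SE 0.15, adjusted p = 0.00976). BUB1B (chromosome 15, 40161023 to 40221136, plus strand), which encodes the CDC20 inhibitor BUBR1, had 73.4, 55.7 and 57.1 CPM in siNFKB2, 101, 102 and 102 CPM in siRELB, and 93.8, 87.3 and 86.8 CPM in siNS. Here too the siNFKB2 libraries stood below all others (log2 -0.52, SE 0.124, adjusted p = 0.0116). The calls of TTK and BUB1B were lost without siNFKB2 replicate 2 (adjusted p = 0.0595 and 0.0643) and without siNFKB2 replicate 3 (0.0513 and 0.0553), and over the 18 alternatives the adjusted p reached down to 0.000758 for TTK and 0.000213 for BUB1B.

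BUB3, MAD1L1 and MAD2L1 were not called. BUB3 (chromosome 10, 123154277 to 123170467, plus strand), the small adaptor that binds BUB1 and BUBR1, had 224, 280 and 261 CPM in siNFKB2, 148, 142 and 141 CPM in siRELB, and 203, 201 and 218 CPM in siNS. The 3 groups did not overlap, with siNFKB2 above siNS and siRELB below it. In siNFKB2 the log2 fold change was 0.30 (SE 0.108, adjusted p = 0.0636), and the gene passed the test in 5 of 18 alternatives, DESeq2 among them (adjusted p = 0.0278, over a range of 0.0081 to 0.228). MAD1L1 (chromosome 7, 1815793 to 2233243, minus strand), which holds MAD2L1 at unattached kinetochores, had 124, 123 and 106 CPM in siNFKB2, 100, 95.1 and 90.5 CPM in siRELB, and 84.7, 117 and 121 CPM in siNS. Its siNS libraries spanned the siNFKB2 ones in part, and the log2 fold change of 0.13 (adjusted p = 0.56) was -0.02 without siNS replicate 1 and -0.06 without the 3 libraries numbered 1. MAD2L1 (chromosome 4, 120055608 to 120067074, minus strand), which clamps onto CDC20, had 85.6, 70.3 and 61.0 CPM in siNFKB2, 115, 106 and 107 CPM in siRELB, and 121, 69.8 and 104 CPM in siNS. The low siNS replicate 2 lay within the siNFKB2 range. The log2 fold change was -0.44 (SE 0.194, adjusted p = 0.12), and over the 18 alternatives it ranged from -0.64 to -0.25 with adjusted p from 0.0166 to 0.336. MAD2L1 was called in 2 of them, without siNS replicate 2 (-0.64) and with the replicate number as a block (-0.43, adjusted p = 0.0301). It was -0.26 and not called without siNS replicate 1, and -0.25 and not called with the mitochondrial rRNA covariate.

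**Figure D1:**
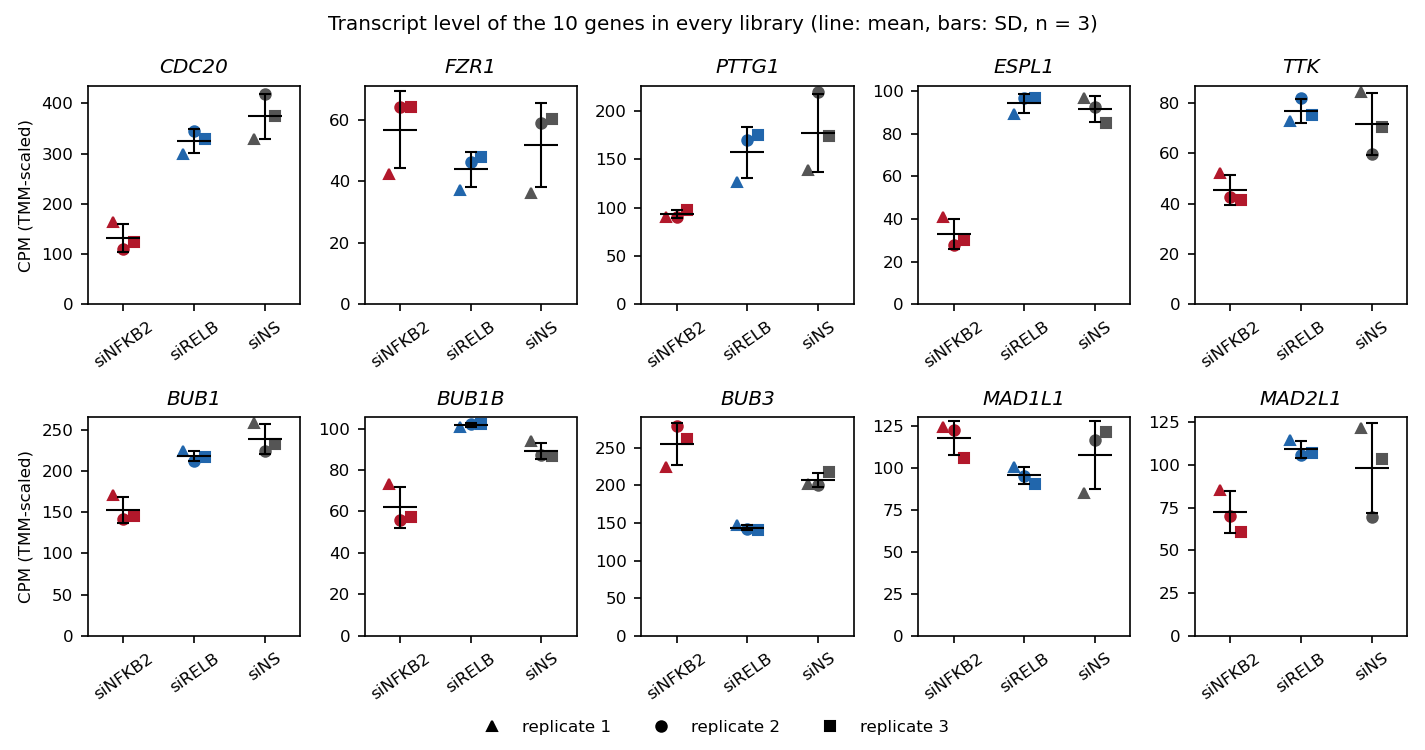
Level of each of the 10 genes in CPM on TMM-scaled library sizes (vertical axes from 0), by group (siNFKB2, siRELB, siNS); symbols mark the replicate number, the line is the mean and the bars the SD of 3 libraries. CDC20 lies at 110 to 163 CPM in siNFKB2 against 328 to 418 CPM in siNS, and BUB3 separates into 3 levels.

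As a group, 6 of 10 were lower without overlap between siNFKB2 and siNS libraries and 1, BUB3, was higher, beside 18.6% and 18.8% of all tested genes that were lower or higher in that way. The median log2 fold change of the 10 was -0.58, against -0.004 over all tested genes. At an unadjusted p below 0.05 in edgeR's test 7 were lower and 1 higher, beside 19.6% and 18.9% of all tested genes. DESeq2 called 6 lower and 1 higher, beside 15.5% and 14.6% of all genes. Relative to the siNS mean, the median of the 10 was -0.36, -0.70 and -0.68 in siNFKB2 replicates 1 to 3. Replicate 1, where NFKB2 was lowest, was thus nearest to siNS, and it is one of the libraries numbered 1 that stood apart. Without those 3 libraries, 6 of the 10 genes were called lower and 1 higher, while the shares over all genes were 23.2% and 21.6%. With mitochondrial rRNA as a covariate 6 were called lower, beside 15.2% of all genes. Markers of cell identity moved in siNFKB2 as well: 5 of 8 tested mesenchymal markers were called lower and 1 higher, beside 13.5% and 12.6% of all genes. Their summed level was 4770 to 5100 CPM in siNFKB2, 5230 to 6310 CPM in siRELB and 5810 to 7480 CPM in siNS. Of 5 tested epithelial markers 2 were called lower and 1 higher, with sums of 579 to 683 CPM in siNFKB2, 642 to 729 CPM in siRELB and 637 to 941 CPM in siNS, and of 2 tested blood markers 1 was called lower. In siRELB 1 mesenchymal marker, FN1, was called lower (log2 -0.51) and 1 epithelial marker, CDH1, higher (1.18, against 0.82 in siNFKB2). Of all genes 0.81% were called lower and 1.21% higher there. The part of these markers in the results was not tested.

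RELB depletion was the second comparison, and 1 of the 10 genes was called. BUB3 fell to 69.4% of the siNS mean. None was called higher, in edgeR, at an unadjusted p below 0.05 or in DESeq2. At the unadjusted level 8.01% of all genes were lower and 8.81% higher. DESeq2 gave an adjusted p for 13666 genes here, of which 2.94% were called lower and 3.47% higher. CDC20 and ESPL1 were at 86.8% and 103% of the siNS mean. In this comparison 2.02% of tested genes were called, 0.81% lower and 1.21% higher.

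The BUB3 log2 fold change in siRELB was -0.53 (SE 0.108, adjusted p = 0.0388). All 3 siRELB libraries, within 141 to 148 CPM, lay below all siNS libraries. The call was lost in 8 of 18 alternatives, 7 of which leave out a single library: siNS replicate 2 or 3, siNFKB2 replicate 2 or 3, or any siRELB library. The other is the fit of the 2 groups alone (adjusted p = 0.0531). Over all alternatives the adjusted p ranged from 0.000238 to 0.212, while the log2 fold change stayed between -0.56 and -0.49. Over all genes, 120 were called lower and 179 higher in this comparison, against 13 and 6 without siNS replicate 3 and 882 and 937 without siNS replicate 1.

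The other 9 genes were not called. CDC20 had a log2 fold change of -0.20 with a 95% interval from -0.55 to 0.14, FZR1 -0.24 from -0.74 to 0.25, and PTTG1 -0.17 from -0.56 to 0.21. ESPL1 was at 0.04, from -0.29 to 0.37, TTK at 0.10, from -0.23 to 0.43, and MAD2L1 at 0.15, from -0.28 to 0.58. BUB1 (-0.13, interval -0.37 to 0.11) and BUB1B (0.19, interval -0.09 to 0.46) did not overlap with siNS, BUB1 being lower and BUB1B higher, and neither was called (adjusted p = 0.588 and 0.481). Of all tested genes, 10.2% were lower and 12.3% higher without overlap, and of the 10 members 2 were lower and 1 higher. Without the 3 libraries numbered 1, FZR1 (log2 -0.34, adjusted p = 0.0255) and MAD1L1 (-0.36, adjusted p = 0.0266) were also called lower, while the shares of all genes called were 11.7% lower and 11% higher.

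**Figure D2:**
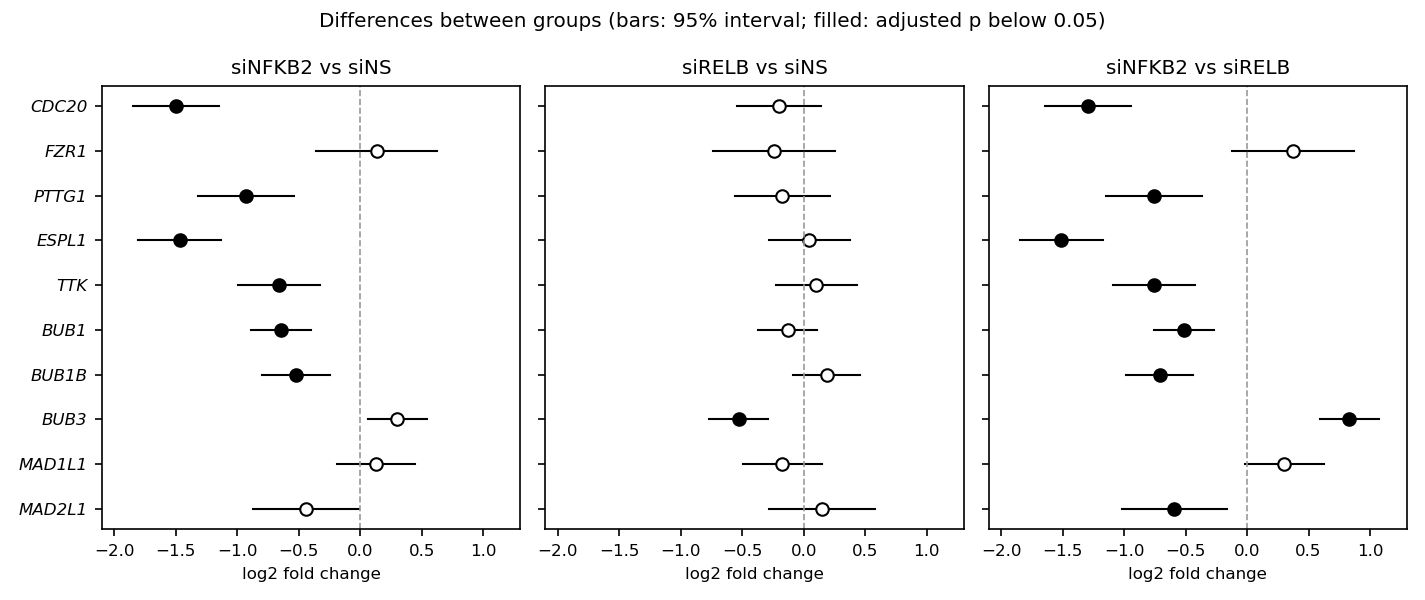
Log2 fold change of each gene in the 3 comparisons, with the 95% interval from the edgeR fit as a bar; filled circles passed an adjusted p below 0.05 over all genes. CDC20 and ESPL1 lie between -1.51 and -1.30 in both comparisons that have siNFKB2 on top, and BUB3 lies at 0.30, -0.53 and 0.83.

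Set directly against each other, the knockdowns differed in 8 of the 10 genes. In siNFKB2 7 genes were lower than in siRELB (CDC20, BUB1, BUB1B, MAD2L1, TTK, PTTG1 and ESPL1), and BUB3 was higher. This is the test of whether the effects of the siRNAs differ, and it shares the siNFKB2 libraries with the first comparison and the siRELB libraries with the second. In this comparison 26.6% of tested genes were called, 14.3% lower and 12.2% higher.

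ESPL1 differed most (log2 -1.51, SE 0.153, adjusted p = 0.000256), followed by CDC20 at -1.30 (SE 0.157, adjusted p = 0.000486). BUB3 was higher in siNFKB2 by 0.83 (SE 0.108, adjusted p = 0.000659), and this call held in all 18 alternatives, at 0.78 to 0.93. TTK (-0.76), PTTG1 (-0.76), BUB1B (-0.71) and BUB1 (-0.51) had adjusted p from 0.00273 to 0.0108. MAD2L1 was at -0.59 (SE 0.194, adjusted p = 0.0458), a call lost in 8 of 18 alternatives, in 6 of them by leaving out 1 library, with adjusted p from 0.00409 to 0.174. The 6 are siNS replicate 3, siNFKB2 replicates 2 and 3 and the 3 siRELB libraries. The others are RLE scaling (adjusted p = 0.0516) and the mitochondrial rRNA covariate, with which the fold change was -0.38 (adjusted p = 0.117). Between these groups 7 of 10 genes were lower and 2, BUB3 and MAD1L1, higher without overlap, beside 23.6% and 22.3% of all tested genes. Deviations of same-numbered siNFKB2 and siRELB libraries correlated at 0.223 to 0.57, and with the replicate number as a block FZR1 was called higher as well (log2 0.36, adjusted p = 0.0208), as against 0.37 and an adjusted p of 0.245 without it. The block also gave 2957 genes called higher over the whole table, 20% of those tested, against 1813 without it.

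Ratios between partners within a library do not depend on its scaling. CDC20 over FZR1, the early against the late APC/C activator, had a log2 ratio of 1.95, 0.78 and 0.94 in siNFKB2, 3.01, 2.90 and 2.78 in siRELB, and 3.18, 2.83 and 2.64 in siNS. Every siNFKB2 library was thus lower, by 1.66 on average against siNS (exact permutation p = 0.1, two-sided). BUB3 over BUB1 had a log2 ratio of 0.40, 0.98 and 0.84 in siNFKB2, -0.60, -0.58 and -0.62 in siRELB, and -0.36, -0.16 and -0.09 in siNS. BUB3 counts therefore exceeded those of BUB1 only in siNFKB2, and the 3 groups did not overlap. CDC20 over its inhibitor MAD2L1 was lower in siNFKB2 than in siNS by 1.09, with means of 0.865 ± 0.191 and 1.96 ± 0.581 (SD, n = 3 each, exact permutation p = 0.1). PTTG1 over ESPL1 was higher by 0.58, with means of 1.51 ± 0.33 and 0.93 ± 0.37, but siNFKB2 replicate 1 lay within the siNS range (exact permutation p = 0.2). BUB1 over BUB1B averaged 1.31 ± 0.08 in siNFKB2, 1.10 ± 0.05 in siRELB and 1.42 ± 0.05 in siNS. Both knockdowns were below siNS without overlap, by 0.317 on average in siRELB. In siNFKB2 the difference was -0.109 and the groups barely separated, at 1.35 for its highest library and 1.36 for the lowest of siNS. TTK over MAD1L1 averaged -1.38 ± 0.14 in siNFKB2, -0.31 ± 0.13 in siRELB and -0.585 ± 0.511 in siNS. With 3 libraries against 3 an exact test cannot go below 0.1, and over the 18 ratio tests the adjusted p was 0.138 or more, so none of these shifts passed a threshold of 0.05.

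**Figure D3:**
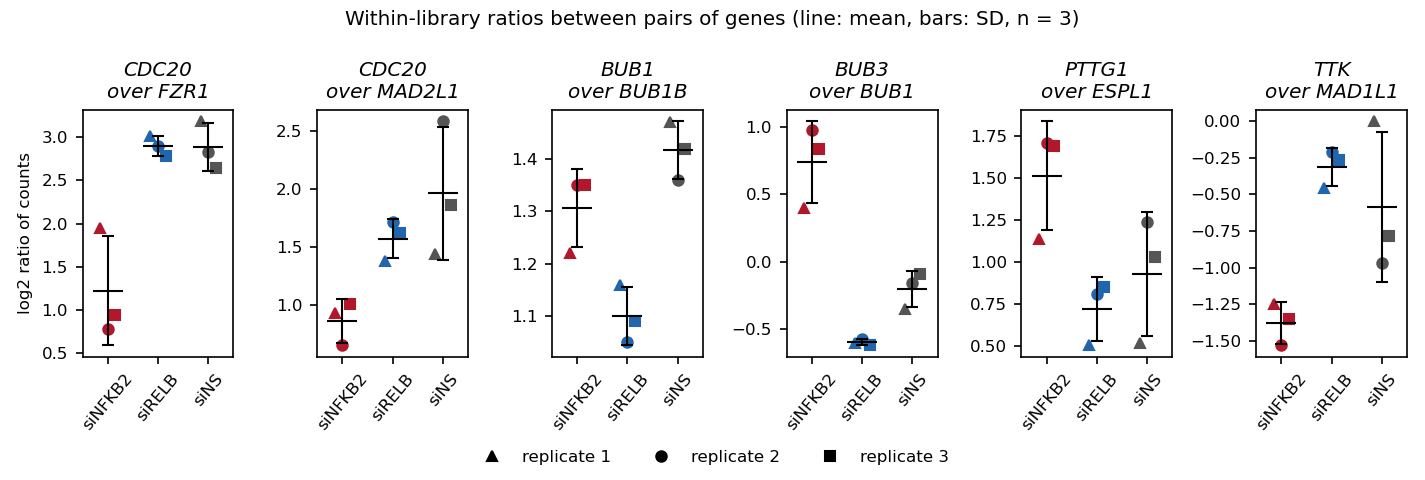
Log2 ratio of counts between 6 pairs of genes within each library, by group; symbols mark the replicate, the line is the mean and the bars the SD of 3 libraries. Vertical axes differ between panels. BUB3 over BUB1 lies above 0 in siNFKB2 and below 0 in siRELB and siNS, and CDC20 over FZR1 is lower in siNFKB2 than in the other groups.

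The promoters of the genes that fell were set beside that of FZR1. Entries in RefSeq (GRCh38.p14) were matched for 8 of the 10 genes, not for TTK and BUB3, and each covers 250 bases before and 50 bases after the transcription start. Printed here are the genes with the largest falls, CDC20 and ESPL1, the checkpoint genes BUB1 and BUB1B, and FZR1 as one that was not called, each 5′ to 3′ on the gene's strand. Capitals mark TTTGAA, the core of the cell cycle genes homology region known from mitotic promoters, and CCAAT, the box bound by NF-Y, on either strand (TTCAAA and ATTGG on the opposite one). The windows are chr1:43358731-43359030 (plus strand) for CDC20, chr12:53268049-53268348 (plus) for ESPL1, chr2:110678014-110678313 (minus) for BUB1, chr15:40160819-40161118 (plus) for BUB1B, and chr19:3506061-3506360 (plus), the upstream start, for FZR1.
CDC20: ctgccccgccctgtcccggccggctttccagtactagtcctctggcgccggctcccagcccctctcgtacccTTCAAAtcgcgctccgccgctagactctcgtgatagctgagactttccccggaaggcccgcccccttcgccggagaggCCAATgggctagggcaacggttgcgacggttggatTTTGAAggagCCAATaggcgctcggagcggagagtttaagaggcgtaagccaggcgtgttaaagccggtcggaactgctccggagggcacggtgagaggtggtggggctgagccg
ESPL1: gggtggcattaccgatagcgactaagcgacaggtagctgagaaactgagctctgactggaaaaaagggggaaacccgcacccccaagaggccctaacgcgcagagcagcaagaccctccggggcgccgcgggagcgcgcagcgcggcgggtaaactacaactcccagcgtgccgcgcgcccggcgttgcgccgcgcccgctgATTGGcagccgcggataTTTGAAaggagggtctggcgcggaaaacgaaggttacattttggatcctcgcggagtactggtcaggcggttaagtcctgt
BUB1: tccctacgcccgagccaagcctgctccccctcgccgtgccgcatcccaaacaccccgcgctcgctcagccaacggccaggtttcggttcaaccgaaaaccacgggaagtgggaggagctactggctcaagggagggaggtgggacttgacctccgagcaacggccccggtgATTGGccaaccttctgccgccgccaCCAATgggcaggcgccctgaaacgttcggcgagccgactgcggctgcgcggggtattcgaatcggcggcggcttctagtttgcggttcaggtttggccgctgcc
BUB1B: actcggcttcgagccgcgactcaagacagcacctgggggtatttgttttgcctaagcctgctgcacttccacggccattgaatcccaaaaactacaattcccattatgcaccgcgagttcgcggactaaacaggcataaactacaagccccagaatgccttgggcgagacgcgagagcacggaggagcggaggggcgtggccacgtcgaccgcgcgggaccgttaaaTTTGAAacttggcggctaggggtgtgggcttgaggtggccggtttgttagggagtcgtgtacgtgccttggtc
FZR1: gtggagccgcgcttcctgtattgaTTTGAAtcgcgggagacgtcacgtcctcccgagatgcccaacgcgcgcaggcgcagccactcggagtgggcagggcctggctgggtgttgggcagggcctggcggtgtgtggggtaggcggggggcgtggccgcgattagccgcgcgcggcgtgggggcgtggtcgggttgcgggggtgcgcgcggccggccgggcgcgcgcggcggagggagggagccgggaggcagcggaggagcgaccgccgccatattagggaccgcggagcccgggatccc

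TTTGAA was in the window of 5 of the 8 genes (CDC20, ESPL1, BUB1B, MAD2L1 and FZR1), and 18.2% of 27305 genes have it in a window of the same length (15.2% of 35116 windows). CCAAT was also in 5 of 8 (CDC20, ESPL1, BUB1, MAD2L1 and PTTG1), as in 39.7% of genes. In CDC20, TTTGAA at -65 to -60 from the start lies just before a CCAAT box at -55 to -51, and a further TTTGAA lies on the opposite strand at -178 to -173. In ESPL1 it is at -31 to -26, behind a CCAAT box on the opposite strand at -48 to -44. BUB1B has it at -23 to -18, MAD2L1 at 25 to 30 after the start, and FZR1 at -226 to -221, the farthest from the start of these. BUB1 has a pair of CCAAT boxes in opposite directions, at -79 to -75 and -54 to -50, and MAD1L1 had neither motif in its window. CDC20, which fell, and FZR1, which was not called, thus both hold TTTGAA, FZR1 in its upstream window only. The downstream window of FZR1, chr19:3522706-3523005 (plus strand), had neither motif. A match is a description of letters only.

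Related genes, on lists chosen with results of these data known, are given by role. Of 16 checkpoint partners tested 10 fell in siNFKB2 and none rose (median log2 fold change -0.53), beside 13.5% of all genes lower and 12.6% higher. Without siNS replicate 3 or without siNFKB2 replicate 2 the count was 5, and over the libraries left out it ranged from 5 to 12. INCENP, a scaffold of the chromosomal passenger complex, was at -0.94 (adjusted p = 0.000676), the kinetochore microtubule anchor NDC80 at -0.95 (0.00089), and KNTC1, which encodes the checkpoint protein ROD, at -0.95 (0.00123). DESeq2 also called 10 lower and none higher, and at an unadjusted p below 0.05 in edgeR 11 were lower and 1 higher. Of 15 APC/C substrates tested 13 fell and none rose in edgeR (also at an unadjusted p below 0.05) or DESeq2 (median -0.835), among them the replication inhibitor GMNN (-0.91, adjusted p = 0.000474), cyclin CCNB2 (-0.79, 0.000932) and CDCA3 (-1.01, 0.0016).

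The APC/C itself was mostly not called. The counts in this paragraph stand beside 13.5% of all genes called lower and 12.6% higher by edgeR. By DESeq2 these shares were 15.5% and 14.6%, and at an unadjusted p below 0.05 in edgeR 19.6% and 18.9%. Of the 14 APC/C subunits none fell by edgeR or DESeq2 (1 at an unadjusted p below 0.05) and 1 rose, the small subunit ANAPC13 (log2 0.91, SE 0.14, adjusted p = 0.00147). Leaving out 1 library gave 0 to 2 subunits lower and 1 higher. Without the libraries numbered 1, 3 were lower and 2 higher, beside 23.2% and 21.6% of all genes. With the replicate block 1 was lower and 2 were higher, where 2999 and 2945 genes were called in all. The median over the 14 was 0.04, and ANAPC4 (-0.30, adjusted p = 0.106) and ANAPC5 (-0.24, 0.14) came next by adjusted p. Among 6 tested enzymes and inhibitors 2 fell, the ubiquitin-conjugating enzymes UBE2C (-1.03, adjusted p = 0.00633) and UBE2S (-0.75, 0.0125) that work with the APC/C, and none rose in edgeR, at an unadjusted p below 0.05 or in DESeq2, which called 3 lower. With so few genes 1 library matters: 1 was called lower without siNS replicate 3 or siNFKB2 replicate 3, and 1 was called higher without siNS replicate 1. Its inhibitor FBXO5 was at -0.40 (adjusted p = 0.0511). Of 16 genes of cohesin and its regulators, 4 fell and 2 rose (median -0.13), beside 26.1% of all genes called in either direction. Without siNS replicate 1 these counts were 1 and 5, and without siNS replicate 3 or siNFKB2 replicate 2 or 3 they were 1 and 1. Leaving out siNS replicate 2, siNFKB2 replicate 1 or any siRELB library left 4 lower and 1 higher. CDCA5, which encodes sororin and keeps cohesin on DNA, fell (-0.80, adjusted p = 0.000398), as did the cohesin protector SGO2 (-0.60, 0.0273). The cohesin acetyltransferase ESCO1 rose (0.70, 0.00241), whereas the other acetyltransferase on the list, ESCO2, fell (-0.95, 0.0321). The cohesin subunit RAD21 also fell (-0.94, 0.0289), and NIPBL rose (0.42, 0.0443). For SGO2 and ESCO2 the siNFKB2 and siNS libraries overlapped. The last list held 12 genes, the regulators of mitotic genes together with the kinetochore gene CENPF and the proliferation marker MKI67. Of the 12, 3 fell, MYBL2 (-0.63, adjusted p = 0.00155), RBL1 (-0.94, 0.00691) and FOXM1 (-0.67, 0.00751). None rose in edgeR, at an unadjusted p below 0.05 or in DESeq2, which called 4 lower (median -0.34 over the 12). CENPF (-0.40, adjusted p = 0.264) and MKI67 (-0.42, 0.57) were not called. Without the libraries numbered 1, 7 of the 12 were called lower, beside 23.2% of all genes. With the replicate block it was 6, where 2999 genes were called lower in all. MYBL2 and FOXM1 encode activators and RBL1 a repressor of cell cycle genes.

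In siRELB these lists held 2 calls in all, beside 0.81% of all tested genes called lower and 1.21% higher. DESeq2 also called 1 checkpoint partner and 1 gene of the list with mitotic regulators lower, beside 2.94% of the 13666 genes given an adjusted p there. The APC/C substrate AURKA, a centrosome kinase, was lower (log2 -0.81, SE 0.118, adjusted p = 0.0111), and the cohesin subunit SMC1A was higher (0.57, SE 0.121, adjusted p = 0.0412). No substrate was called without siNS replicate 3 or siRELB replicate 2 or 3, and 2 were without siNS replicate 1. No cohesin gene was called higher in 8 of 18 alternatives, which are the fit of the 2 groups alone and leaving out siNS replicate 2 or 3, siNFKB2 replicate 2 or 3, or any siRELB library. Medians were between -0.11 for the APC/C enzymes and inhibitors and 0.08 for cohesin. The other genes among the 2 smallest adjusted p of each list were HASPIN (-0.62, adjusted p = 0.122), MYBL2 (-0.29, 0.164), ANAPC2 (-0.51, 0.181), SPDL1 (-0.30, 0.2), CDCA3 (-0.39, 0.251), CUEDC2 (-0.35, 0.274), UBE2S (-0.42, 0.278), ESCO1 (0.24, 0.339), LIN52 (-0.31, 0.39) and ANAPC15 (-0.22, 0.474), none of them called by edgeR. At an unadjusted p below 0.05, 3 of 16 partners, 2 of 6 enzymes or inhibitors and 2 of 15 substrates were lower. At that level 1 of 14 subunits and 1 of the 12 genes listed with the mitotic regulators were lower. Among 16 cohesin genes 1 was higher, and the shares of all genes were 8.01% lower and 8.81% higher.

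**Figure D4:**
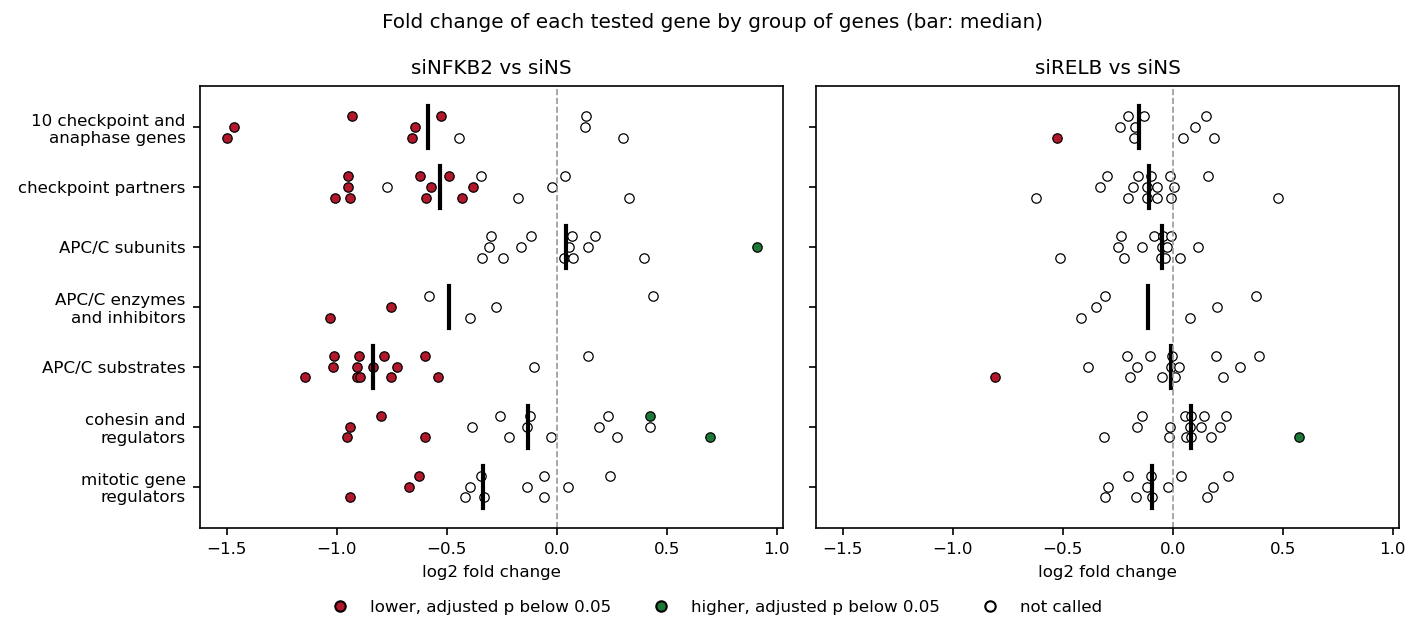
Log2 fold change of every tested gene on each list (horizontal axis) in siNFKB2 against siNS and in siRELB against siNS; red circles were called lower, green higher, open circles were not called, and bars are medians. In siNFKB2 the median is -0.835 for APC/C substrates and 0.04 for APC/C subunits, and in siRELB every median lies between -0.15 and 0.08. The row of mitotic gene regulators also holds CENPF and MKI67.

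The pattern of CDC20 over the 9 libraries was compared with that of 10614 other genes at a mean of at least 5 CPM, by Pearson's r of log2 CPM, as a description over libraries that share their groups. The most alike were NOX4 (r = 0.996), FEN1 (0.995), TTC7A (0.994), TMSB4X (0.994) and BRK1 (0.994). All 5 were called lower in siNFKB2 against siNS, with log2 fold changes from -2.25 for NOX4 to -1.03 for FEN1, and none was called in siRELB. They were picked for following CDC20 over these same libraries, so this pattern of calls comes with the selection. Among the members ESPL1 (r = 0.977) ranked 97 in that list, BUB1 (0.945) 376, PTTG1 (0.92) 599 and BUB1B (0.905) 746. TTK (0.867) ranked 1041 and MAD2L1 (0.636) 2478, while BUB3 had r = -0.70, MAD1L1 -0.40 and FZR1 -0.35.

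Near copies of these genes and genes with overlapping exons were looked up as well. PTTG2 and PTTG3P, copies of PTTG1, had at most 3 counts in any library, and the readthrough gene BUB1B-PAK6, which shares 10.2% of BUB1B's exons on the same strand, had at most 1. CDC20B, a relative of CDC20, had at most 9, and CDC20P1, also looked for as a copy, had no entry. How reads that match several copies were counted is not given in the sources used here. MAD2L2, a relative of MAD2L1 that acts in DNA repair and also inhibits the APC/C, had 48.3, 56.8 and 50.3 CPM in siNFKB2, 62.0, 67.3 and 61.5 CPM in siRELB, and 67.8, 92.7 and 83.6 CPM in siNS. It fell in siNFKB2 (log2 -0.65, SE 0.135, adjusted p = 0.00631) and was not called in siRELB (-0.36, adjusted p = 0.223). MFSD12, on the other strand, shares 1.21% of FZR1's exons and had 18777 counts over the 9 libraries. Whether the counting used the strand is not given, and the part of MFSD12 reads in the FZR1 counts was not tested.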

How the data were processed

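RNA was measured in 9 U2OS libraries made with oligo-dT priming. The deposited values are raw read counts per gene, and per the submitters' processing notes Trimmomatic 0.38, STAR 2.7.1a, Subread 1.6.4 and GRCh38.p13 were used by the authors. Neither strandedness nor the handling of reads with several matches is stated there. Entries for further placements of a gene (5005, at most 0.0369% of counts) stayed separate. Genes were filtered with filterByExpr, scaled by TMM and tested in edgeR 4.0.16 (R 4.3.3) with 1 model over the 3 groups and Benjamini-Hochberg adjustment over 14815 genes. Standard errors and 95% intervals come from that fit. DESeq2 1.42.0 and the other alternatives are in the closing section. Members and lists were chosen with earlier results of these data known. Named were all members, NFKB2 and RELB, member copies, the 3 smallest adjusted p in siNFKB2 and the 2 smallest in siRELB of each related list, and the 5 genes most like CDC20. Also named were the other cohesin genes called in siNFKB2, and CENPF and MKI67. Same-numbered libraries of siNFKB2 and siRELB deviated together (r = 0.57, 0.223 and 0.489), a pairing that comes from the replicate numbers, so the replicate block is printed there where it changes a call. No 2 replicates agreed within sampling noise, the chi-square per degree of freedom being 3.13 to 75.8.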

Additional observations from a re-analysis of the deposited data

How the results depend on the processing

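Fold changes and counts of calls were recomputed under 18 alternatives, and ratios within libraries by leaving out each library. Levels per kilobase, likeness and motif counts were not recomputed. NFKB2 was called lower in siNFKB2 against siNS (log2 -2.09, adjusted p = 0.021) and in 14 of the 18, with adjusted p up to 0.0936. RELB was called lower in siRELB against siNS (-2.69, 0.00881) and in 16 of the 18, with adjusted p up to 0.0591. In siNFKB2 against siNS CDC20, BUB1, PTTG1 and ESPL1 were called lower in all 18 alternatives. In that comparison 1 member was called higher with a mean of at least 5 CPM, the replicate block, the libraries numbered 1 left out or DESeq2. Genes called lower and higher numbered 2999 and 2945 with the replicate block, and 3475 and 3236 without the libraries numbered 1. Leaving out 1 library gave 1140 to 2485 lower and 1054 to 2410 higher, with 4 to 7 members lower and 0 to 1 higher. The fold change turned for FZR1 (-0.0296 with the mitochondrial rRNA covariate, -0.0716 to 0.305 leaving out 1 library) and MAD1L1 (-0.0609 without the libraries numbered 1, -0.0192 to 0.243). In siRELB against siNS, genes called lower numbered 193 with no filter, 673 with the replicate block, 54 with only the 2 groups, 208 with the covariate, 1751 without the libraries numbered 1, 402 with DESeq2 and 7 to 882 leaving out 1 library. Genes called higher were 897, 75, 295, 1639 and 474 with the block, 2 groups, covariate, libraries numbered 1 left out and DESeq2, and 6 to 937 leaving out 1 library. Members called lower were 0 with only the 2 groups, 3 without the libraries numbered 1 and 0 to 1 leaving out 1 library. Fold changes turned leaving out 1 library for MAD2L1 (-0.0599 to 0.332), TTK (-0.0287 to 0.238), ESPL1 (-0.00587 to 0.0888) and CDC20 over FZR1 (-0.109 to 0.162). In siNFKB2 against siRELB, the replicate block gave 2957 genes and 2 members higher, and leaving out the libraries numbered 1 gave 3252 higher and 3348 lower, with 3 members higher. Leaving out 1 library gave 1162 to 2553 lower and 979 to 2364 higher, with 6 to 7 members lower and 1 to 2 higher. The cause of these shifts was not tested. By the replicate numbers, siNFKB2 and siNS (r = 0.0942 for number 2) and siRELB and siNS (r = 0.0634 for number 3) do not pair, and not every library correlated best with its own number. Precision is limited by 3 libraries a group.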
